A study of Mus musculus with 24 samples.

Results

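Formalin-fixed, paraffin-embedded heart tissue (FFPE) was compared with heart tissue that had been flash frozen (Frozen), by chromatin immunoprecipitation and sequencing with an antibody against H3K27Ac. This mark is acetylation of histone H3 at lysine 27. The heart comparison took 4 of the 24 samples that the labels describe, 2 H3K27Ac libraries of FFPE heart and 2 of Frozen heart. In the deposited table these 4 libraries stand as 2 of 8 columns, 1 for Heart-FFPE and 1 for Heart-Frozen, and every gene of the table, 27179 in all, was a member. The columns of brain, kidney and liver gave the same difference in 3 other organs. All mice are given only as Mus musculus, and the labels used here give no strain, sex, age, allele or number of animals for either preservation.

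Per the labels' protocols, FFPE organs were fixed in 10% formalin, freed of paraffin, and extracted at 95 °C for 20 min. Frozen organs were cored while frozen and crosslinked in 1% formaldehyde for 30 min. A PIXUL sonicator sheared both chromatins. According to the labels, replicates 1 and 2 belong to separate ChIP runs, and either of 2 library kits was used. The columns carry no replicate number, and the sources used here do not say whether a column is 1 library or several merged. A difference between the mice, runs or kits behind the columns therefore cannot be told apart from a difference in preservation. With 1 column per group, values within heart carry no replicate error. The exact 95% intervals given with them cover counting error only.

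H3K27Ac marks active promoters and enhancers, and at a gene it usually follows transcription. The mark can separate atrial from ventricular myocardium, since both chambers share most contractile genes but differ in a smaller set of myosin light chains, peptides and channels. Heart muscle also carries very many mitochondria, whose own genome encodes a few subunits of the respiratory chain and has no histones, while the nucleus encodes the rest.

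The heart columns held 5743071 counts in FFPE and 4808023 counts in Frozen, or 3674891 and 4545951 outside the mitochondrial genome. The median gene had 87 and 90 counts. The label heart was checked against contractile genes. Myh6, the alpha myosin heavy chain of adult mouse cardiomyocytes, had 1997 counts in heart FFPE and 1969 in Frozen heart, against 160 to 316 in the 6 columns of the other organs. None of the 34 sarcomere genes was at 0 in either heart column. In bulk tissue, fewer cells of a type and less H3K27Ac per cell cannot be told apart.

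Values are log2 CPM as deposited, that is counts relative to library size, and a difference is FFPE minus Frozen on that scale. A gene was counted as at least 2-fold higher or lower when it had 40 counts or more over both heart columns and a difference of at least 1 in size. Of 21433 genes with that minimum, 1163 genes (5.43%) were at least 2-fold higher and 827 genes (3.86%) at least 2-fold lower in heart FFPE. The interval lay wholly beyond 2-fold for 218 of the higher and 170 of the lower genes. The median difference of all tested genes was -0.09, with an SD over genes of 0.63. The split between the directions depended on the scaling. It was 500 higher and 2877 lower when columns were scaled to their total count, with a median of -0.43 over all tested genes. Scaled to the total outside the mitochondrial genome, it was 2003 higher and 309 lower, with a median of 0.13. After quantile normalization it was 524 higher and 527 lower, with a median of 0.01. Linear scalings move every gene by the same amount, so a list is read below against the median of all genes.

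The difference in heart ran with the level of a gene. Nuclear genes with a mean under 3 log2 CPM had a median difference of 0.45, and 23.4% of them were at least 2-fold higher in FFPE. Genes at 4 to 5 log2 CPM had a median of 0.00. Genes at 7 log2 CPM and over had a median of -0.37, and none of these 903 genes was at least 2-fold higher. The spread of values over genes was narrower in heart FFPE, with an SD of 1.25, than in heart Frozen, with an SD of 1.52. Liver showed the same slope, with a median of 0.48 in the lowest class and -0.63 in the highest. Brain and kidney did not show a fall with level, their medians being -0.05 and -0.06 in the lowest class and 0.27 and 0.05 in the highest. List medians are also given relative to genes of the same level, written "by level" for short. This value is the difference minus the running median of genes at the same mean level in heart.

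**Figure D1:**
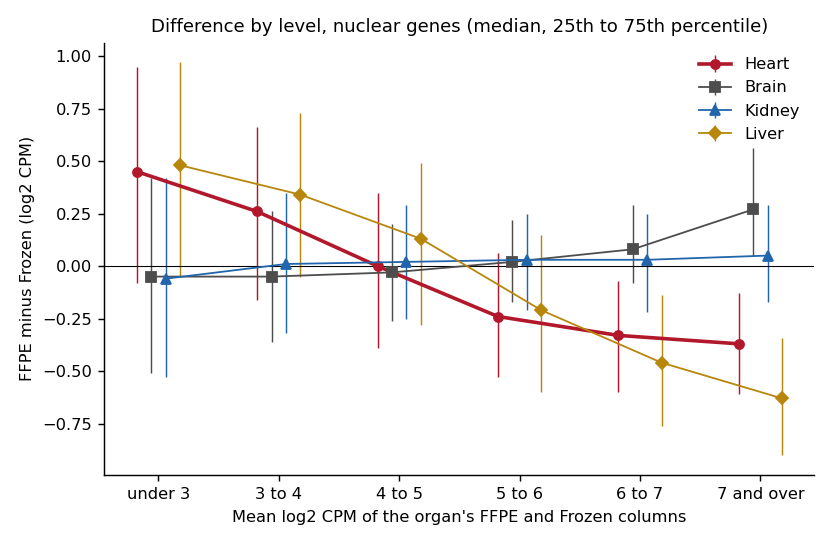
Median difference of nuclear genes, FFPE minus Frozen in log2 CPM, by the mean level of the gene in the organ; lines from each point span the 25th to the 75th percentile over genes. Heart and liver slope downward, from 0.45 to -0.37 and from 0.48 to -0.63, while brain and kidney stay between -0.06 and 0.27.

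Among genes of similar level, the span of the gene on the genome also went with the difference. A span was known for 20483 of the 21418 tested nuclear genes. When genes were put into 4 equal groups by level, the median difference in the highest group was -0.58 for genes under 5 kb and -0.14 for genes of 100 kb and over. In the groups between, the medians were -0.45 and -0.01 for the upper and -0.16 and 0.19 for the lower. In the lowest group they were 0.35 and 0.30, so the difference by span was absent only there. The sources used here do not say which part of each gene was counted.

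Counts from the mitochondrial genome made up 36.0% of all counts in FFPE heart and 5.45% in Frozen heart. The share in FFPE was larger than in the other organs' FFPE columns, where it was 16.0% in brain, 18.4% in kidney and 12.7% in liver. In the Frozen columns of those organs it was 5.62%, 4.52% and 5.29%, close to Frozen heart. All 15 mitochondrial genes were at least 2-fold higher in heart FFPE, with differences between 1.77 and 4.2 and a median of 3.13. The median difference was 1.75 in brain, 2.32 in kidney and 1.14 in liver. In the test of heart against the other organs, described at the end, none of the 15 genes passed, the smallest adjusted p from limma being 0.984. The fit gave ND2 a heart term of 1.67 with an SE of 3.36, and ND5 1.36 with an SE of 4.0. These errors come largely from a trend of variance with level, fitted over all genes. The ND2 differences of brain, kidney and liver themselves lay closer together, at 2.51, 3.15 and 1.93. With errors set in that way the test cannot decide whether heart lay beyond the other organs at these genes.

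The genes of the mitochondrial genome did not share one factor. ND2, a subunit of complex I, had 390461 counts in heart FFPE and 22509 in heart Frozen, an 18.4-fold difference relative to the deposited library sizes. ND6, the complex I subunit that is encoded on the other strand, had 170511 and 11139 counts, a 16.2-fold difference. COX3, a subunit of complex IV, had 26780 counts in FFPE and 8339 in Frozen, a 3.40-fold difference. COX1, the catalytic subunit of complex IV, differed 4.14-fold, with 116021 and 29671 counts. ND2 held 18.9% of mitochondrial counts in heart FFPE and 8.59% in heart Frozen, and COX1 held 5.61% and 11.3%. The other organs had the same order at its ends. ND2 or ND3 was the highest and COX1 or COX3 the lowest of the 15 genes in each. These are DNA fragments, not transcripts, and no input column was analysed here.

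**Figure D2:**
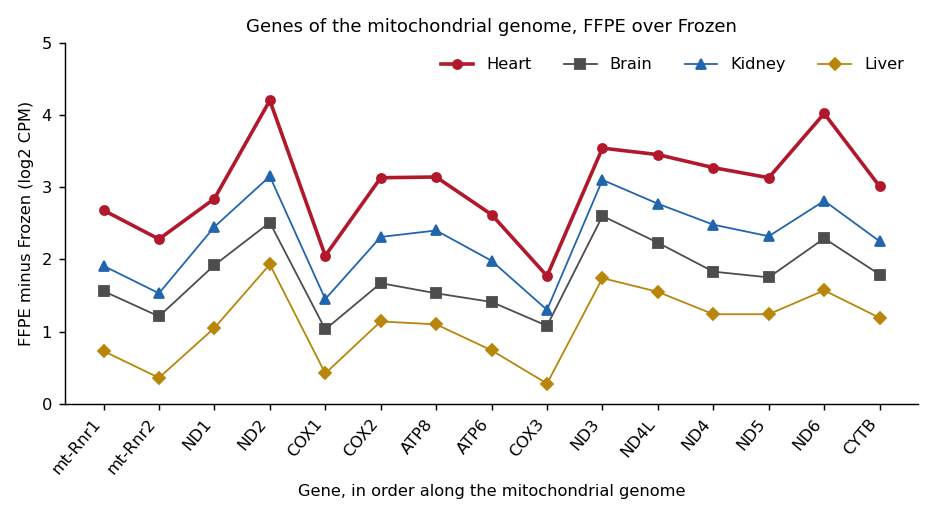
Difference of each of the 15 genes of the mitochondrial genome, FFPE minus Frozen in log2 CPM, in order along that genome, 1 line per organ. The heart line lies above the other 3 at every gene, from 1.77 at COX3 to 4.2 at ND2, and all 4 lines dip at COX1 and COX3.

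Genes of the atrium stood higher in FFPE heart and genes of the ventricle lower. Of 15 atrial genes, all of them tested, 5 (33.3%) were at least 2-fold higher and 0 were lower, with a median difference of 0.59 against -0.09 for all genes. Over all tested genes 5.43% were at least 2-fold higher. Of 12 ventricular genes, 0 passed 2-fold in either direction, yet all 12 had a difference below 0, from -0.97 to -0.18, with a median of -0.69. Of all 21433 tested genes, 12046 had a difference below 0. Relative to genes of the same level the medians were 0.65 for atrial and -0.45 for ventricular genes, with 12 of 15 atrial values above 0 and 10 of 12 ventricular values below 0. The medians of the atrial list in brain, kidney and liver were 0.22, 0.39 and 0.18, and those of the ventricular list 0.12, -0.18 and 0.21. Both lists were chosen with earlier results on Nppa known.

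Nppa, which encodes atrial natriuretic peptide, lies at chr4:148000722-148002074 (GRCm38). It had 187 counts (5.44 log2 CPM) in heart FFPE and 38 counts (3.08 log2 CPM) in heart Frozen, a difference of 2.37 with an interval of 1.87 to 2.93. Heart Frozen was near the Frozen columns of other organs for this gene, with 61 counts in brain and 29 in kidney. Liver showed the direction of heart, with 29 counts in FFPE, 10 in Frozen and a difference of 1.80. Sln, which encodes sarcolipin, the atrial inhibitor of the calcium pump SERCA, had 41 counts in heart FFPE and 2 in heart Frozen. Its difference was 4.14 with a wide interval of 2.50 to 7.53. Brain Frozen, kidney Frozen and liver Frozen had 29, 31 and 18 counts of Sln, all above heart Frozen. Myl7, the atrial regulatory myosin light chain, had 95 and 28 counts and a difference of 1.83 (1.22 to 2.51), against 35, 26 and 24 counts in the Frozen columns of brain, kidney and liver. Mybphl, an atrial relative of myosin binding protein C, had 73 and 24 counts, and Bmp10, a ligand made in the atria, had 59 and 20 counts. Their differences were 1.67 and 1.62. Lower in the order came Kcnj3, a subunit of the acetylcholine-gated potassium channel, at 0.91. Myl4, the atrial essential light chain, did not share the direction, with 99 counts in FFPE, 130 in Frozen and a difference of -0.31 (-0.70 to 0.08).

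On the ventricular side, Myl2, the ventricular regulatory light chain, had 159 counts in heart FFPE and 279 in heart Frozen, a difference of -0.73 (-1.02 to -0.44). Myl3, the ventricular essential light chain, had 128 and 239 counts. Irx4, a transcription factor of the ventricle, had 128 and 240 counts, and both differences were -0.82. Cited4, a transcriptional coregulator, was lowest of the list at -0.97, with 208 and 433 counts. Nppb, which encodes B-type natriuretic peptide and lies next to Nppa at chr4:147985786-147987205, went the other way from its neighbour. It had 127 counts in FFPE and 207 in Frozen, a difference of -0.62 (-0.95 to -0.30). In liver the ventricular light chains had differences above 0, 1.48 for Myl2 and 1.46 for Myl3, at 50 and 22 counts for Myl2. Which chamber each heart sample came from is not given in the labels used here, so chamber and preservation cannot be told apart.

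**Figure D3:**
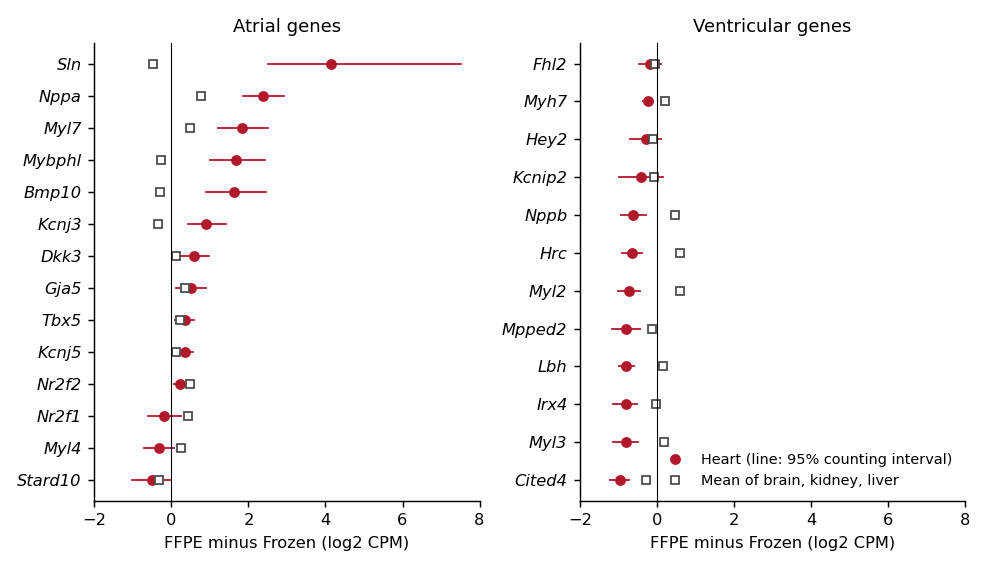
Difference of atrial genes (left) and ventricular genes (right), FFPE minus Frozen in log2 CPM; filled points are heart with exact 95% counting intervals, open squares are the mean of brain, kidney and liver. Atrial genes reach from -0.51 to 4.14 in heart and ventricular genes from -0.97 to -0.18.

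The promoters of 2 atrial genes are shown because both genes were at least 2-fold higher, on different chromosomes. The windows come from RefSeq (GRCm38.p6) and run from 250 bases before to 50 bases after the gene start, 5′ to 3′ on the gene's strand. Capitals mark CG dinucleotides, of which Nppa (chr4:148000472-148000771, plus strand) holds 6 and Myl7 (chr11:5898733-5899032, minus strand) holds 5.
Nppa: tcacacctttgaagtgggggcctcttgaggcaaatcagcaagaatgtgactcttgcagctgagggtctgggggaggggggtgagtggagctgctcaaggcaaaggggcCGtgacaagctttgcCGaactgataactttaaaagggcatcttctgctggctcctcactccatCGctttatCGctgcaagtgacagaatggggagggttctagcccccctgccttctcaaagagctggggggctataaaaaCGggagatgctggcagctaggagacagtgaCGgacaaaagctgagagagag
Myl7: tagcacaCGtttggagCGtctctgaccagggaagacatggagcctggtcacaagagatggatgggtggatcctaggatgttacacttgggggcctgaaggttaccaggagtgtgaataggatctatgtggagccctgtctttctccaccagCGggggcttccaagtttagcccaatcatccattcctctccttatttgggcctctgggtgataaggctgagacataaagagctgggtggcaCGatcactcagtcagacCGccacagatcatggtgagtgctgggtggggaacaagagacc

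The contractile apparatus as a whole differed little. Of 34 sarcomere and Z-disc genes, 2 were at least 2-fold higher, and these were the atrial genes Myl7 and Mybphl. None was 2-fold lower, and the median was -0.20, or 0.07 relative to genes of the same level. Ttn, which encodes titin, the elastic filament of the sarcomere, had 7362 counts in heart FFPE and 6627 in heart Frozen, a difference of 0.23. Myh6 differed by 0.10 (0.01 to 0.19), and Myh7, the beta myosin heavy chain, by -0.24 (-0.36 to -0.11). Tnni3, cardiac troponin I, had 226 and 365 counts, a difference of -0.61. Actc1, cardiac actin, had 303 and 374 counts, a difference of -0.22 (-0.44 to 0.00). Cox6a2, the muscle isoform of a complex IV subunit, had 188 and 279 counts, a difference of -0.49. Tnni3 was thus as far from 0 as the middle atrial gene, in the other direction.

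Regulators and calcium handling were close to the median of all genes. None of 27 cardiac transcription factor genes passed 2-fold, and their differences ran from -0.91 to 0.35. Their median was -0.21, or 0.12 relative to genes of the same level. The lowest was Zfpm2, a cofactor of Gata4, with 240 counts in FFPE and 479 in Frozen. Gata4 itself differed by -0.21, Hand2 by -0.21 and Nkx2-5 by -0.32. The 20 tested genes of calcium cycling had a median of -0.20, or 0.10 relative to genes of the same level, and among them Sln was 2-fold higher. Mrln, which encodes myoregulin, a small inhibitor of SERCA, was 2-fold lower, at 15 and 35 counts. Ryr2, the calcium release channel, differed by 0.23, and Camk2d, a calcium-dependent kinase, by -0.78. Among 27 genes of the natriuretic and stress programme, Nppa and Lcn2 were higher and Mt2 lower, with a median of -0.36, or -0.24 by level. Lcn2, which encodes lipocalin 2, had 60 and 29 counts, and Mt2, which encodes a metal-binding protein, had 84 and 191. Of 21 ion channel and gap junction genes none passed 2-fold, Kcnj3 being the farthest, and the median was -0.11, or 0.15 relative to genes of the same level.

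Heat shock genes were lower in FFPE heart as a group. All 18 had a difference below 0 and 8 (44.4%) were at least 2-fold lower, with a median of -0.72. Of all 21433 tested genes, 12046 were below 0 and 3.86% were at least 2-fold lower. Among nuclear genes the latter share was 5.05% at 6 to 7 log2 CPM and 5.2% at 7 and over. Relative to genes of the same level the list median was -0.35, with 16 of 18 below 0. Summed over the list, heart FFPE held 6526 counts and heart Frozen 12744. Hsph1, a co-chaperone of the HSP70 family, had 243 counts in heart FFPE and 838 in heart Frozen, a difference of -1.70 (-1.91 to -1.50). Hspa1a, an inducible HSP70, had 355 and 1048 counts, a difference of -1.48. Reads of Hspa1a and its near-identical neighbour Hspa1b cannot be assigned with certainty, and Hspa1b had 459 and 1153 counts, a difference of -1.24. The small heat shock protein gene Hspb1 had 383 and 957 counts (-1.24). The mitochondrial chaperonin pair Hspe1 and Hspd1, which share 1 promoter region, were at -1.26 and -1.20. Dnajb1, a co-chaperone that activates HSP70, was at -1.18, and Hsp90aa1, the inducible HSP90, at -1.01.

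Not every chaperone followed. The constitutive Hspa8 differed by -0.33 and Hspb6, a muscle heat shock protein, by -0.24 (-0.53 to 0.04). The list had a median of -0.89 in liver, where it was lower too, -0.18 in kidney and 0.11 in brain. Liver therefore had the nearest value. Heart and liver still differed for Hspb1, at -1.24 and -0.27, for Hsph1, at -1.70 and -0.95, and for Hspa1a, at -1.48 and -0.87. No heat shock gene passed the test of heart against the other 3 organs, the smallest adjusted p from limma being 0.774. When the liver columns were left out, the heart terms of Hspa1a, Hspb1 and Hsph1 were -1.62, -1.46 and -1.41. That fit drops the organ nearest to heart for this list and leaves 1 residual degree of freedom per gene. It therefore cannot show a fall particular to heart.

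**Figure D4:**
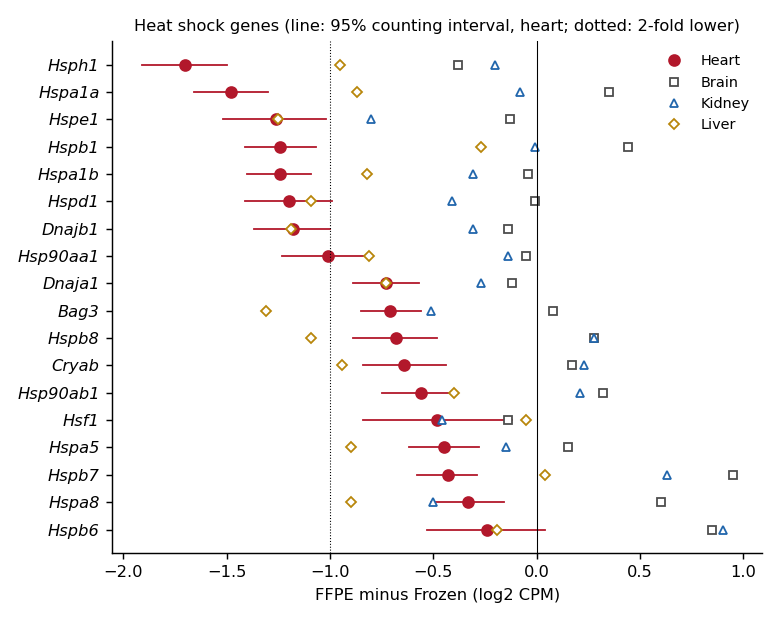
Difference of 18 heat shock genes, FFPE minus Frozen in log2 CPM, with heart as filled points and exact 95% counting intervals and the other organs as open symbols; the dotted line marks 2-fold lower. All 18 heart points lie below 0, from -1.70 for Hsph1 to -0.24 for Hspb6.

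The promoters of Hsph1 and Hspa1a are printed because these were the members with the lowest differences. Heat shock factor binds inverted repeats of GAA. The search was for GAANNTTC and TTCNNGAA, each of which reads the same pattern on both strands, with overlapping matches counted. Capitals mark the matches. Hsph1 (chr5:149636287-149636586, minus strand) held 3 matches, the last 2 overlapping, and Hspa1a (chr17:34972107-34972406, minus strand) held 1. Of the first listed windows of 27025 genes, 15.1% held at least 1 match. A match is a description of these letters. Windows were given for under 80% of the heat shock list, so no count over the list is made.
Hsph1: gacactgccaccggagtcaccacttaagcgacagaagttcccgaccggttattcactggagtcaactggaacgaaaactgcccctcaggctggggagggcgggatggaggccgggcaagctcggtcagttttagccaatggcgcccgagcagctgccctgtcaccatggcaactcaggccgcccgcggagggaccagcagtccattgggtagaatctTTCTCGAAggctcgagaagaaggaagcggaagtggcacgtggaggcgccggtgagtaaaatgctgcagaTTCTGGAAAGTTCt
Hspa1a: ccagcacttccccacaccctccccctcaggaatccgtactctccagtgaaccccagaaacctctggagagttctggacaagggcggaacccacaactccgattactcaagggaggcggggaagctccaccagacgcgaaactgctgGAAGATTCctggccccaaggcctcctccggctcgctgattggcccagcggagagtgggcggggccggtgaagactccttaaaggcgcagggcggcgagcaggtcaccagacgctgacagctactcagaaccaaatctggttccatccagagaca

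Nuclear genes for the respiratory chain stood lower in FFPE heart, while the mitochondrial genome stood higher. Of 85 genes of oxidative phosphorylation, 81 were tested, 21 (25.9%) were at least 2-fold lower and 0 higher, and 79 had a difference below 0. Of all 21433 tested genes, 3.86% were at least 2-fold lower and 12046 were below 0. The list median was -0.72, or -0.54 relative to genes of the same level. All 5 complexes shared it, with medians of -0.66 for complex I, -0.72 for complex II, -0.80 for complex III, -0.63 for complex IV and -0.78 for the ATP synthase. Ndufb4, a complex I subunit, had 52 counts in heart FFPE and 201 in heart Frozen, a difference of -1.86 (-2.34 to -1.42). Sdhd, a membrane anchor of complex II, had 29 and 103 counts (-1.73), and Cox6a1, the general isoform of a complex IV subunit, had 93 and 296 counts (-1.58). Members near 0 included Ndufv1, a core subunit of complex I, with 249 and 267 counts (-0.02), and Ndufa10 at 0.11. Liver had a lower list median than heart, -0.85, followed by kidney at -0.40 and brain at -0.03, so the order of organs was not the one seen for the mitochondrial genome. No member passed the test of heart against the other organs (smallest adjusted p from limma 0.993). Values by level, here and for the lists below, do not account for the span of a gene. In the upper middle group by level, all genes under 5 kb had a median of -0.45 and those of 5 to 10 kb -0.35. In the highest group these were -0.58 and -0.45. The part of span in the list result was not tested.

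Ribosomal protein genes behaved alike. Over all tested genes 3.86% were at least 2-fold lower and 5.43% higher. Of 77 tested mitochondrial ribosomal protein genes, 15 (19.5%) were at least 2-fold lower and 0 higher, with a median of -0.49, or -0.43 relative to genes of the same level. Mrps18b, of the small subunit, had 49 and 180 counts (-1.78), and Mrpl37, of the large subunit, had 60 and 196 (-1.62). Of 84 tested cytosolic ribosomal protein genes, 8 (9.52%) were lower and 1 higher, with a median of -0.51, or -0.36 by level. Rpl19 was the lowest with 181 counts in FFPE and 527 in Frozen (-1.46), and Rps4l the exception with 120 and 54 (1.23). Many of these genes have processed copies, and the sources used here do not say how reads with several positions were counted. Clustered histone genes, which share much of their sequence, had a median of -0.51, or -0.33 by level. Of 65 tested, 3 (4.62%) were lower and 2 (3.08%) higher, near the shares over all genes. In liver the medians were -0.61 for mitochondrial ribosomal, -0.53 for cytosolic ribosomal and -0.84 for histone genes, so none of these was particular to heart. Other metabolic genes of the heart had medians of -0.46 for fatty acid oxidation and -0.37 for glucose and creatine metabolism, or -0.27 and -0.10 relative to genes of the same level. Of 35 genes of fatty acid oxidation only Eci1, an enoyl-CoA isomerase, was 2-fold lower, with 100 and 239 counts (-1.17). Of 25 genes of glucose and creatine metabolism, Pgam2, the muscle phosphoglycerate mutase, was lower with 148 and 350 counts (-1.16). Gbe1, the glycogen branching enzyme, was lower with 174 and 396 counts (-1.10).

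The respiratory chain list also shared promoters dense in CG. A window was given for 68 of 85 members, 80% of the list. Of these 68 windows, 62 (91.2%) held at least 11 CG dinucleotides, against 62.4% of tested genes with a window and 41.9% of all genes with one. The windows of Ndufb4 (chr16:37654319-37654618, minus strand, 23 CG) and Cox6a1 (chr5:115348909-115349208, minus strand, 32 CG) are shown, with CG in capitals, for comparison with Nppa and Myl7 above. This difference in CG is a description, and its part in the result was not tested.
Ndufb4: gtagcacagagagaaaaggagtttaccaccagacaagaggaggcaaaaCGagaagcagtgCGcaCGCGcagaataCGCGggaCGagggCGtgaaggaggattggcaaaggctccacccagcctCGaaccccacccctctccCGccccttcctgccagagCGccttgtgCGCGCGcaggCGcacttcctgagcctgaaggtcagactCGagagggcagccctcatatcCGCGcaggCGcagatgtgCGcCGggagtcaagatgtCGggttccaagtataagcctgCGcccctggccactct
Cox6a1: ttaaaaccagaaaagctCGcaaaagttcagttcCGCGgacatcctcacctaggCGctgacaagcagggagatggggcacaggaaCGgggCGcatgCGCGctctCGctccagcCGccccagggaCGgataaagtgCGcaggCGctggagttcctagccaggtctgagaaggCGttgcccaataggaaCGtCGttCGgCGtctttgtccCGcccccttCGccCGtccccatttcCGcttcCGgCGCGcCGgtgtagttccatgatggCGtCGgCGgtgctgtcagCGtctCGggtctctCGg

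The lists of other cardiac cells gave no direction common to them all. None of 29 endothelial genes passed 2-fold, and 20 were below 0, with a median of -0.10. Relative to genes of the same level the median was 0.22, with 21 above 0. Emcn, which encodes the endothelial sialoprotein endomucin, was lowest at -0.71, with 122 and 212 counts. Pecam1, an adhesion molecule of endothelium, had 533 and 505 counts (0.16), Kdr, a receptor for vascular endothelial growth factor, had 1378 and 1548 (-0.08), and Cdh5, the endothelial cadherin, was highest at 0.73. Endocardial genes had a median of 0.55, or 0.45 by level, over 7 members, none past 2-fold, with Cdh11 the highest at 0.81. Of the 7, 5 were above 0, and all 7 were above 0 by level. The endocardial medians in brain, kidney and liver were -0.1, 0.14 and -0.08. The 22 fibroblast genes had a median of -0.22, or 0.07 by level. Among them Lum, which encodes the matrix protein lumican, was 2-fold lower with 103 and 236 counts (-1.11), while Col1a1, collagen type I, differed by -0.22. Of 19 macrophage genes, Ccr2, the chemokine receptor of recruited monocytes, was higher with 109 counts in FFPE and 38 in Frozen (1.59). The others ranged below 2-fold and 8 of the 19 were below 0, with a median of 0.17, or 0.04 by level. Lymphocyte genes went both ways, with Cd8a at 1.56 and Cd3d at -1.18. Dbh, the noradrenaline enzyme of sympathetic nerves, had 105 and 255 counts (-1.19). Krt8, a keratin of the epicardial list, had 58 and 27 counts (1.17). Ucp1, the uncoupling protein of brown fat, had 35 and 17 counts (1.10), and Mylpf, a light chain of fast skeletal muscle, had 93 and 43 (1.19), each alone in its list. The erythroid list had 6 tested members and none past 2-fold.

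Immediate early genes, which respond within minutes to a stimulus, had a median of -0.27, or 0.04 relative to genes of the same level. Jund, a subunit of the AP-1 factor, was 2-fold lower with 1511 and 3283 counts (-1.04), and Egr3, a zinc finger factor, was 2-fold higher with 86 and 37 counts (1.29). Fos had 328 and 483 counts (-0.47) and Egr1 had 412 and 295 (0.56). The 20 hypoxia genes had a median of -0.33, or -0.03 by level. Among them Higd1a, a mitochondrial inner membrane protein, was lower with 263 and 760 counts (-1.45). P4ha1, a collagen prolyl hydroxylase, was lower with 232 and 666 (-1.44).

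Markers of tissues that are not heart mostly had differences above 0, with 9 of 11 lung and airway, 19 of 26 hepatocyte, 17 of 25 neuron and 20 of 25 nephron genes. The lung and airway list had 3 tested members at least 2-fold higher and a median of 0.52. Its highest member was Sftpa1, a surfactant protein, with 64 and 21 counts (1.67). Hepatocyte genes had 4 members higher and a median of 0.25, with albumin (Alb) at 54 and 24 counts against 856 in liver FFPE and 1120 in liver Frozen. Neuron genes had 3 higher with a median of 0.26, and nephron genes 2 with a median of 0.30. Relative to genes of the same level the medians were 0.17 for lung and airway, 0.07 for hepatocyte, 0.26 for neuron and 0.26 for nephron genes. On that scale 6 of the 11 lung and airway genes and 14 of the 26 hepatocyte genes were above 0, against 17 neuron and 20 nephron genes. The share of genes at least 2-fold higher also ran with level. It was 23.4% of all nuclear genes under 3 log2 CPM, 9.92% at 3 to 4 and 2.5% at 4 to 5. Median levels in heart Frozen were 3.25 (lung and airway), 3.48 (hepatocyte), 4.01 (neuron) and 4.12 (nephron) log2 CPM. Whether these lists exceeded the share at their level was not tested. Summed counts were 708 in FFPE and 496 in Frozen for lung and airway, and 1918 and 1598 for hepatocyte genes, with no listed gene at 0 in either column. The part of such tissue in the results was not tested.

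Receptor genes of the nose, which are silent in most tissues, leaned the same way. Of 183 tested olfactory receptor genes, 49 (26.8%) were at least 2-fold higher and 6 lower, with a median of 0.49. Of 152 tested vomeronasal receptor genes, 45 (29.6%) were higher and 1 lower, with a median of 0.68. The share among all nuclear genes under 3 log2 CPM was 23.4%, so the olfactory share was near that of low genes in general. Relative to genes of the same level the olfactory median was 0.01, with 93 genes above 0 and 90 below. The vomeronasal median was still 0.32 on that scale, with 110 genes above 0 and 42 below. It was not particular to heart, since the unadjusted list median was 0.58 in liver, 0.2 in brain and -0.14 in kidney. Vmn1r132 and Vmn1r158, among its highest members in heart, were at least 2-fold higher in all 4 organs. A total of 925 olfactory and 200 vomeronasal receptor genes fell short of 40 counts. Hox genes, which pattern the body axis, had 5 higher (13.5%) and 1 lower of 37 tested. Among all nuclear genes under 3 and at 3 to 4 log2 CPM, 23.4% and 9.92% were higher. The Hox median was 0.43, or 0.09 relative to genes of the same level. Hoxa6 was the highest with 45 and 11 counts (2.07), and Hoxc6 was lower with 19 and 49 (-1.26).

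**Figure D5:**
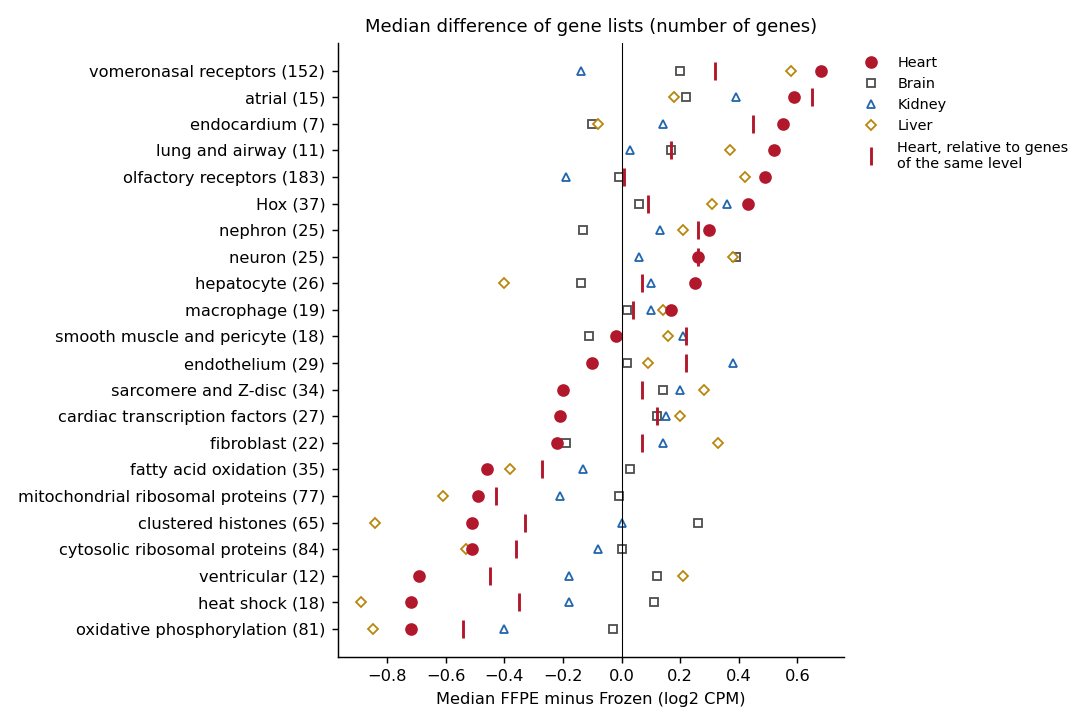
Median difference of gene lists, FFPE minus Frozen in log2 CPM, with the number of tested genes in brackets; filled circles are heart, open symbols the other organs, and bars heart relative to genes of the same level. Heart lies at -0.72 for heat shock and for oxidative phosphorylation, with liver at -0.89 and -0.85, while for the ventricular list heart lies at -0.69 and liver at 0.21.

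Heart shared part of its differences with the other organs. Among 20858 genes with at least 40 counts in every organ's pair of columns, 1053 were at least 2-fold higher in heart FFPE. Of these, 28.0% were also at least 2-fold higher in liver FFPE, against 5.75% of all these genes, and they made up 24.6% of the genes higher in liver. The share was 15.2% for kidney, against 1.86%, and 13.9% for brain, against 1.78%. Of 779 genes lower in heart, 37.6% were also lower in liver, against 6.67% of all these genes. The share was 9.5% for kidney, against 1.68%, and 3.85% for brain, against 0.944%. In 701 (66.6%) of the 1053 higher genes and 448 (57.5%) of the 779 lower genes, no other organ reached 2-fold in the same direction. Across these genes, which are not independent replicates, the heart difference had a Pearson correlation of 0.498 with the liver difference, 0.302 with kidney and 0.179 with brain. Spearman's rho was 0.476, 0.221 and 0.0472. Without mitochondrial genes and genes 2-fold away in all organs, Pearson's r was 0.449, 0.205 and 0.0593, so most of the brain value rested on those genes. The slope with level described above was present in heart and liver, and its part in the correlation was not tested.

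In all 4 organs 102 genes (0.489%) were at least 2-fold higher in FFPE and 9 genes (0.0431%) at least 2-fold lower. Of the 102 genes, 10 belonged to the mitochondrial genome, and 81 had a position in the nuclear genome. Of these 81, 51 lay in 9 groups of at least 3 genes with gaps of at most 1 Mb. At chr7:38446541-39179797 all 11 genes of the table were higher, from Gm6605 to Gm1988, by 1.56 to 3.97 in heart. A group at chr4:145789515-147180579 held 7 genes, with Zfp981, Zfp991, Zfp992 and Zfp993 among them, and differences of 1.29 to 2.85. At chr4:112072016-113286973, Skint3, a relative of the selection factor for skin gamma-delta T cells, had 74 counts in heart FFPE and 0 in heart Frozen. With the floor of 3 counts for the Frozen column, it was at least 26.1-fold higher. The Frozen columns of brain, kidney and liver also held 0 counts of Skint3, and their FFPE columns held 132, 76 and 96. Its neighbour Skint4 had 66 and 4 counts in heart, and 0, 1 and 0 in the other Frozen columns. Many of these genes belong to families of near-identical copies, so their values are uncertain. Strain is not given for the mice of either preservation, and preservation and mouse cannot be told apart.

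The largest differences of single genes in heart often belonged to this shared set. Of the 10 genes with the largest positive difference among 16848 genes with a symbol and at least 100 counts, 6 were at least 2-fold higher in all 4 organs, and of the 10 with the largest negative difference 3 were 2-fold lower in all. BC018473 had 135 counts in heart FFPE and 4 in heart Frozen (5.00, 3.77 to 7.06), and 0 counts in each of the other Frozen columns. Sprr2a1, a small proline-rich protein of skin and gut, had 182 and 14 counts (3.74), and its copy Sprr2a2 had 192 and 17 (3.54). Trim12a, of the TRIM family of restriction factors, had 111 and 13 counts (3.13) and Zfp981 had 336 and 49 (2.85). Ifit1bl1, of an interferon-induced family, had 177 and 33 (2.49). Zfp991 and Gm13147 followed at 2.49 and 2.38. Nppa, at 2.37, and Lefty1, a secreted antagonist of Nodal with 140 and 30 counts (2.29), were the others. Lefty1 differed by 0.31 in brain, 0.57 in kidney and 1.26 in liver.

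On the negative side, Srp54b, a signal recognition particle gene, had 61 counts in heart FFPE and 366 in heart Frozen (-2.49), and it was lower in every organ. G530011O06Rik had 279 and 1447 counts (-2.29), and Cwc22, a splicing factor, had 219 and 1060 (-2.19), with -0.93 in brain, -2.36 in kidney and -2.30 in liver. Ifi202b, an interferon-inducible gene, had 51 and 195 counts (-1.84). Cmc2, a factor for assembly of complex IV, had 56 and 243 counts (-2.02), with -0.21 in brain, -1.03 in kidney and -0.70 in liver. Chst14, a sulphotransferase, had 99 and 374 counts (-1.83). Chst14 differed by -0.31, -0.32 and 0.02 in brain, kidney and liver. Tceal9 had 24 and 103 counts (-2.0) and differed by 0.15, -0.38 and -0.43 there. The list also held Gm7102 at -2.11, Gm5617 at -1.90 and Ndufb4, described above.

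Genes of the sex chromosomes were present in both heart columns. Of the Y genes with a single copy, Kdm5d had 185 counts in FFPE and 164 in Frozen, Eif2s3y 91 and 93, Ddx3y 141 and 159, and Uty 181 and 210. These 4 intervals included 0. Usp9y, also single-copy, had 92 and 61 counts (0.67, 0.19 to 1.17). Xist, the RNA of the inactive X chromosome, had 233 and 133 counts (0.89, 0.58 to 1.21). The 16 tested Y genes beside these 5, mostly of families with many copies, had a median of 1.39. Of all 21 tested Y genes 11 were at least 2-fold higher, against 5.43% of all tested genes. This was not particular to heart. A group of 6 Y genes at chrY:2785165-3410167 was 2-fold higher in all 4 organs. Its medians were 2.41 in heart, 2.22 in brain, 1.73 in kidney and 2.54 in liver.

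To ask which differences of heart lay beyond those of the other organs, a heart term was fitted with limma over the 8 columns and 26944 genes. The term takes its spread from brain, kidney and liver, moderated by a trend of variance with level over all genes. It assumes that heart varies as they do, with 2 residual degrees of freedom. In simulated data its false calls exceeded the nominal rate. It called 5 genes higher (0.0186%) and 1 gene lower (0.00371%) at an adjusted p under 0.05, and 1377 genes had an unadjusted p under 0.05. Timd2, of the family of T cell immunoglobulin and mucin receptors, was the called gene with the highest counts. It had 123 counts in heart FFPE and 27 in heart Frozen, while its FFPE minus Frozen difference was -0.01 in brain, -0.33 in kidney and -0.63 in liver. Its heart term was 2.58 ± 0.48 (SE), with an adjusted p of 0.0123. In Frozen tissue the other organs held 125, 251 and 505 counts of Timd2, so heart Frozen was the low column. Olfr310, an olfactory receptor gene, had 29 counts in heart FFPE and 0 in heart Frozen, at least 10.2-fold higher by the floor of 3 counts, with an adjusted p of 0.000317. Its fitted size depends on the pseudocount and is no bound. Calls were few and rested on low counts, with 0 in either direction when the prior variance had no trend, although 1567 genes then had an unadjusted p under 0.05. Without liver the fit called 86 genes higher and 47 lower, and 43 of the higher genes had under 40 counts over both heart columns. That fit drops the organ whose differences were most like those of heart, and it leaves 1 residual degree of freedom per gene. Sln, Ccr2 and Hoxa6 were among the higher genes, with heart terms of 4.66, 1.94 and 2.48 without liver. Olfactory and vomeronasal receptor genes were among them too, with Olfr875 at 4.29 and Vmn2r99 at 2.16. Nmrk2, a kinase of NAD synthesis in muscle, and Kcnj11, the pore of the ATP-sensitive potassium channel, were among the lower ones. Their heart terms without liver were -1.53 and -1.31. Nppa had a heart term of 1.58 and an adjusted p of 0.944 with all organs.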

How the data were processed

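H3K27Ac chromatin immunoprecipitation sequencing was analysed for heart, FFPE against Frozen, with brain, kidney and liver beside it. The build mm10 and the tools Bowtie2, featureCounts and limma are named per the submitters' processing notes, without versions, and the counting rules are not stated there. The authors deposited log2 values, 1 column per group, which returned whole counts for 100% of values within 0.001, as log2 CPM with a pseudocount of 0.5 and an effective library size. Counts served for depth and for exact Clopper-Pearson 95% intervals, which cover counting error only, with a floor of 3 counts for a count of 0. Because each group had 1 column, no test was made within heart; differences of at least 2-fold were counted among genes with at least 40 counts over both columns. The heart term (organ, preservation and heart by preservation) was fitted to the log2 values with limma 3.58.1 in R 4.3.3, with a variance trend and Benjamini-Hochberg adjustment over 26944 genes, after removing 235 genes at 0 in every column. The fit was tested on simulated data, where the share of false calls was above the nominal rate, so its calls are loosely controlled. Its p-values rest on the spread among these columns, moderated by the variance trend over all genes, and on no replicate error. Positions and promoter windows come from RefSeq (GRCm38.p6), with the first listed window per gene; 25275 identifiers matched. The mitochondrial gene list was corrected after the table had been seen. The members, lists and tests were chosen with earlier results of these data known.

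Genes were named by a rule: the 10 largest differences each way among nuclear genes with a symbol and at least 100 counts, called heart-term genes with a mean of at least 20 counts per column, up to 3 genes per direction in each list, and a set of heart and sex-linked genes. Other genes named are members of those lists, chosen to show their range after their values were seen. Lists with no gene singled out were those for smooth muscle (median -0.02, or 0.22 relative to genes of the same level), clock (-0.19, or 0.12), glucocorticoid (-0.07, or 0.24) and housekeeping genes (-0.27, or -0.06), Gimap genes (0.15, or 0.27), and immunoglobulin heavy chain V segments, of which 1 was tested. The 8 inputs were not analysed here, and 1 atrial gene is counted in its list but not reported singly.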

Additional observations from a re-analysis of the deposited data

Results flagged for a closer look

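A total of 6 results stood out because the heart difference departed from that of the other 3 organs in the heart term of limma, a test of that departure itself, at an adjusted p under 0.05. The fitted heart term was 2.58 for Timd2. It was 6.66 for the immunoglobulin segment Igkv6-23 (18 counts in heart FFPE and 0 in heart Frozen), 6.56 for Olfr310 (29 and 0), 6.13 for Olfr551 (25 and 0) and 5.78 for Gm19340 (31 and 0). It was -5.29 for 1 gene without a symbol (0 and 14). Where a column held 0 counts the fitted size depends on the pseudocount. By the floor of 3 counts these were at least 6.36-fold higher for Igkv6-23, 8.83-fold for Olfr551 and 10.9-fold for Gm19340. Over the alternatives, the adjusted p ran from 0.000237 to 0.389 for Timd2 and from 4.38e-10 to 0.232 for Olfr310. Each of the other 4 genes passed the threshold in 3 or 4 of the alternatives it was fitted in. The false call rate of this fit was above nominal in simulated data.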

How the results depend on the processing

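The scaling decided how the 2-fold genes split. Against 1163 higher and 827 lower genes, there were 500 and 2877 scaled to total count, 2003 and 309 scaled to the total outside mitochondrial genes, and 524 and 527 after quantile normalization. Of the 1163 higher genes, 489 were shared with the quantile set. A minimum of 100 counts left 367 higher and 717 lower genes, which turned the split, and a minimum of 1 count gave 2981 higher and 1407 lower. Calls on the nearer interval bound numbered 218 and 170. Relative to genes of the same level, an alternative chosen after seeing the data, 640 genes were higher, 554 of them shared, and 773 lower. A pseudocount of 2 counts gave 1067 and 786. Of 89 genes named by the rule and at least 2-fold away, 69 to 75 stayed so in the same direction under the 3 scalings and relative to genes of the same level. Of these 89, 0 changed sign, but COX1 and COX3 were not among them. Of 42 lists, 11 changed the sign of their median relative to all genes when compared at the same level. After quantile normalization the top ranks share 1 set of values, and the mitochondrial list had a median of 0.33. Its members then went both ways, from -0.80 for mt-Rnr2 to 2.37 for ND3. COX1 and COX3 changed sign, to -0.67 and -0.66, while ND2 and ND6 stayed above 0, at 0.85 and 1.33.

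The heart term called 5 genes higher and 1 lower. It called 0 and 0 without a variance trend and scaled to the total outside mitochondrial genes, and 2 and 1 after quantile normalization and with a mean of at least 20 counts per column. Leaving out 1 organ gave 4 to 86 higher and 0 to 47 lower genes. Leaving out liver gave the highest counts, leaving out brain 6 and 0, and leaving out kidney 4 and 2; the cause was not tested. No paired analysis was possible because the columns carry no replicate number. With 1 column per group, depth limits single genes. At 40 counts over both columns, counting error alone is wide, as for Sln.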

Other observations

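MicroRNA genes, which were in no list, were chosen after their values were seen, by a word in the deposited gene names. Of 61 tested, 22 were at least 2-fold lower in heart FFPE and 0 higher, with a median of -0.54, or -1.0 relative to genes of the same level. The lowest was Mir2861 at -1.76, and the highest was Mir208a at 0.97, which lies within the myosin gene Myh6. Their median was -0.65 in liver, 0.08 in brain and 0.05 in kidney. Of 138 small nucleolar RNA genes 50 were tested. They gave 10 (20.0%) lower and 1 higher, with a median of -0.57 in heart and -0.64 in liver. These RNA genes are short and lie within or near longer genes, and reads from overlapping genes cannot be told apart. Genes named as chaperones gave 8 of 41 (19.5%) lower and 1 higher, with Cct5, a subunit of the cytosolic chaperonin, at -1.59. Their median was -0.51 in heart and -0.59 in liver.

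Cytochrome P450 genes, many of them known from liver, had 16 of 100 (16.0%) higher in heart FFPE and 1 lower. Their median was 0.38 in heart, or 0.15 relative to genes of the same level, and -0.08 in liver. Serine or cysteine peptidase inhibitor genes had 9 of 57 (15.8%) higher and 0 lower, with a median of 0.21, which was 0.00 relative to genes of the same level. Both families had a median of 3.11 log2 CPM in heart Frozen. Among all nuclear genes under 3 and at 3 to 4 log2 CPM, 23.4% and 9.92% were higher, so both shares lay within that range.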
